A study of Mus musculus with 2 samples.

Results

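The blood vessels of the newborn mouse cortex were described here through 39 genes of endothelial cells and pericytes, out of 18193 genes named by the array. They comprised 27 endothelial genes, 5 transporter genes of the blood-brain barrier and 7 pericyte genes, and each was read from the probe sets that the platform annotation gives to that gene alone. The pool labelled double knockout held cortical RNA from 3 mice that carried MRTF-A-/- together with MRTF-BF/F and a GFAP-Cre transgene, and the control pool held cortical RNA from 3 mice that carried MRTFA-/- with MRTF-BFlox/Flox and no Cre. Each pool was hybridised to 1 Affymetrix array. By these labels the pools share the null MRTF-A and floxed MRTF-B alleles and differ by the GFAP-Cre transgene, a recombinase driven by a promoter of astrocytes and their neural precursors. The Mrtfa signal did not match between them: its only probe set read 262.4 in the double knockout pool and 601.6 in the control pool (-1.20 log2), both above the floor used here. The pools are therefore called by their labels, and a difference between them cannot be told apart from one that goes with Mrtfa. Age was given as postnatal day 0 for both pools, except that a description of the double knockout sample gave day 1.

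Endothelial cells line the vessel and pericytes sit on its outer face within the same basement membrane. VEGF receptors and the TIE receptors guide vessel growth and stability, PDGF-B released by endothelium recruits pericytes through PDGFRB, and Wnt signals from neural cells induce tight junctions and nutrient transporters. The MRTF proteins act as coactivators of SRF, a factor that reads a DNA element called the CArG box in genes of the actin cytoskeleton. Endothelium is of mesodermal origin and lies outside the neural lineage. In these bulk samples, fewer cells of a type and less RNA per cell cannot be told apart.

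Promoters were available for 25 of the 39 genes in the RefSeq sequence table of build GRCm38.p6, with 32 start sites in all. The 2 genes printed below are those with the largest differences between the pools, Adgrf5 downward and Pde5a upward. Each sequence is the 250 bases before an annotated start, 5′ to 3′ on the strand of the gene, and capitals mark the ETS-family motifs AGGAAG and CCGGAA on either strand. Adgrf5 has 2 annotated starts. The first lies at chr17:43360181-43360430 on the plus strand, and the second at chr17:43389216-43389465. The window of Pde5a lies at chr3:122728908-122729157 on the plus strand.
Adgrf5 first start: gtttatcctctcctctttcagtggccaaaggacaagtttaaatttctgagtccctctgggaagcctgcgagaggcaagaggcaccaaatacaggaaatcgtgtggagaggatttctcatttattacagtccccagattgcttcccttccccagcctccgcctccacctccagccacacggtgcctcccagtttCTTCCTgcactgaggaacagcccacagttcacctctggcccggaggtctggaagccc
Adgrf5 second start: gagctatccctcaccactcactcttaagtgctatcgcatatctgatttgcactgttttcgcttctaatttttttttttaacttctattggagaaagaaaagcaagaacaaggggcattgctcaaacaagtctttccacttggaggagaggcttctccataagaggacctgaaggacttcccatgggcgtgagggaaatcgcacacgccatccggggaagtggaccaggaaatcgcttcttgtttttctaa
Pde5a: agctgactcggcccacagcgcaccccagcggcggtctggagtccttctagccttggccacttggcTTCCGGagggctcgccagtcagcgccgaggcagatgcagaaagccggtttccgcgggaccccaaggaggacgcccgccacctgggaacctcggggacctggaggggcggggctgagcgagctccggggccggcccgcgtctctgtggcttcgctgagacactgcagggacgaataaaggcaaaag

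The first Adgrf5 window holds 1 AGGAAG, on the opposite strand at 57 to 52 bases before the start, and the second holds neither ETS motif. The Pde5a window holds 1 CCGGAA, on the opposite strand at 185 to 180 bases before the start. Its GC content was 68.4%, against 54.4% and 44.8% in the Adgrf5 windows. Across the 32 promoters of the vascular genes, AGGAAG was found in 14 (43.8%), against 29.5% of all 32851 promoters in the table, and CCGGAA in 3 (9.38%), against 12% of all promoters. The 14 AGGAAG promoters belong to 13 of the 25 genes. Of these, Erg, Ly6c1 and Tie1 were not measured on the arrays. No matches of the 2 motifs overlapped in the vascular promoters. The SOX motif ATTGT was found in 7 (21.9%), against 27.7% of all promoters, and the TCF/LEF motif CTTTGA in 5 (15.6%), against 13.8%. The CArG box was found in 0 of the 32 windows, against 1.47% of all promoters, a share too small for 32 windows to show a lack of it. These matches, searched on both strands, describe letters in the windows and not binding.

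The vascular genes as a whole had nearly the same signal in both pools. Of the 39 genes, 32 were measured, meaning that a probe set reached a floor of 178.6 signal units, the median of all non-control signals, and all 32 did so on both arrays. Of these 32, 21 were lower and 11 higher in the double knockout pool, while 47.1% of the 11636 measured genes of the array were lower and 52.9% higher. The median difference of the 32 genes was -0.06 log2, beside 0.01 log2 over all measured genes. Differences are given as log2 of the double knockout signal over the control signal, so that a negative value means lower in the double knockout pool, after a centring shift of 0.0037 log2. With 1 array per pool no test was possible, so none of these differences has a replicate check.

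**Figure D1:**
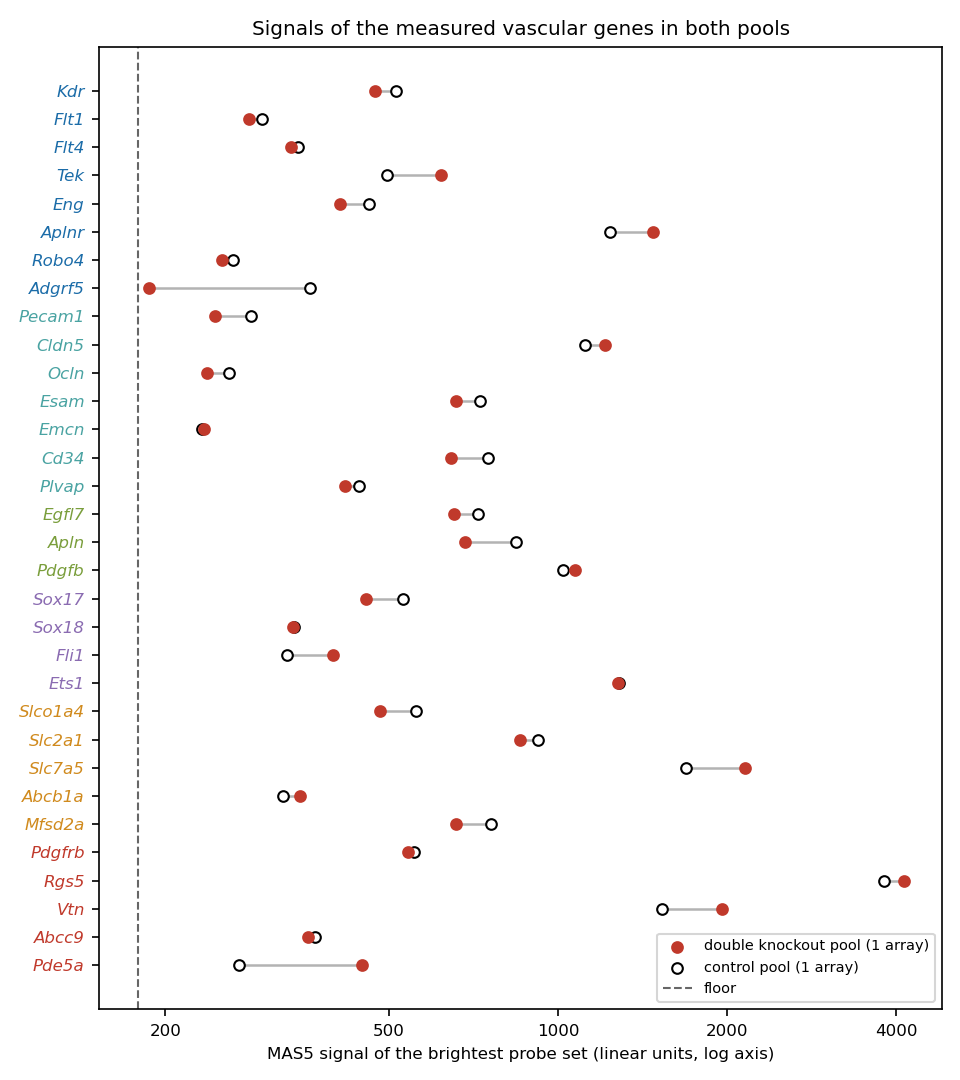
MAS5 signals (linear units on a log axis) of the 32 measured vascular genes, with filled red circles for the double knockout pool and open circles for the control pool, 1 array each; the dashed line is the floor of 178.6, and gene names are coloured by class. The 2 circles of most genes lie close together, and the longest connecting lines belong to Adgrf5 and Pde5a.

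The spread between probe sets of 1 gene gives a yardstick for small differences, although it covers no variation among mice. This SD was 0.18 log2 when pooled over the 4858 genes that had 2 or more probe sets above the floor on both arrays. Pooled over the 10 vascular genes with such probe sets it was narrower, 0.13 log2. The wider value of 0.18 is the probe set SD used throughout. Of the 32 vascular genes, 19 differed by no more than 0.18 log2. The 7 lower by more were Adgrf5, Apln, Cd34, Mfsd2a, Pecam1, Slco1a4 and Sox17, where 14.8% of all measured genes were lower by more. The 6 higher by more were Aplnr, Fli1, Pde5a, Slc7a5, Tek and Vtn, where 12.3% of all measured genes were higher by more. With a pseudocount in place of the floor, the 7 lower genes became 2, Adgrf5 and Apln, beside 10.3% of all measured genes. The 6 higher became 5 without Fli1, beside 8.13%. Pecam1 was also within the SD after quantile normalization (-0.15) and after loess centring (-0.15). At a threshold of 1.2-fold, Adgrf5 and Apln were lower, 2 genes beside 8.37% of all measured genes, and Pde5a, Slc7a5, Tek and Vtn were higher, 4 genes beside 5.61%, for a total of 6 beside 14%. At 1.5-fold there were 2, beside 1.14% of all measured genes. They were Adgrf5 on the lower side, where 0.773% of all measured genes passed, and Pde5a on the higher side, where 0.37% passed, and each rested on 1 probe set.

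The VEGF receptors stood close to equal in the pools. Kdr, the main VEGF receptor of growing vessels, read 473.4 in the double knockout pool and 514.7 in the control pool, a difference of -0.12 log2. Flt1, a VEGF receptor that also acts as a decoy, read 281.7 in the double knockout pool and 297.0 in the control pool on its brightest probe set, and its 2 probe sets above the floor on both arrays averaged -0.04 ± 0.06 log2 (SD). A dimmer Flt1 probe set read 189.0 in the double knockout pool and 160.0, under the floor, in the control pool, and the mean over the measured Flt1 probe sets was -0.0010 log2, which leaves no direction. Flt4, the receptor of VEGF-C, read 335.5 in the double knockout pool and 345.0 in the control pool, a difference of -0.04 log2. All 3 receptors lay within the probe set SD.

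The receptors of vessel maturation went both ways. Tek, the angiopoietin receptor TIE2, read 620.1 in the double knockout pool and 497.3 in the control pool, 0.31 log2 higher on its only probe set. Its partner Tie1 stayed under the floor, at 124.1 in the double knockout pool and 150.6 in the control pool. Eng, endoglin, a coreceptor for TGF-beta and BMP ligands, read 409.2 in the double knockout pool and 461.6 in the control pool, a difference of -0.18 log2. Its second probe set read 127.3 in the double knockout pool, under the floor, and 206.4 in the control pool, so both probe sets were lower.

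Aplnr, the apelin receptor, and its ligand Apln, made by tip cells of sprouting vessels, differed in opposite directions. Aplnr read 1479.1 in the double knockout pool and 1240.6 in the control pool on its brightest probe set, 0.25 log2 higher, but its 2 probe sets averaged 0.14 ± 0.16 log2 (SD). Apln read 682.2 in the double knockout pool and 842.6 in the control pool, 0.31 log2 lower on its only probe set. Robo4, an endothelial member of the roundabout family, read 252.0 in the double knockout pool and 264.3 in the control pool, a difference of -0.07 log2.

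Adgrf5, an adhesion G protein-coupled receptor of endothelium and lung, had the largest difference of the 39 genes. It read 187.4 in the double knockout pool, just above the floor, and 362.7 in the control pool, 1.94-fold lower (-0.96 log2). It ranked 7 from the bottom among the 11636 measured genes. The second Adgrf5 probe set was under the floor in both pools, at 70.9 in the double knockout pool and 52.3 in the control pool, and so did not share the direction. With a pseudocount equal to the floor in place of the floor, the difference was -0.57 log2.

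Genes of surface and junction proteins of the endothelium were slightly lower in 5 of 7 measured cases, beside 47.1% of all measured genes. Their median was -0.13 log2, which is the value of Ocln. Pecam1, the adhesion molecule CD31, read 245.0 in the double knockout pool and 284.3 in the control pool, -0.22 log2. Cd34, a sialomucin, read 644.2 in the double knockout pool and 750.3 in the control pool, also -0.22 log2. Both stood just outside the probe set SD, on 1 probe set each.

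The tight junction genes did not share a direction. Cldn5, the main claudin of the blood-brain barrier, read 1210.8 in the double knockout pool and 1117.1 in the control pool, 0.11 log2 higher. Ocln, occludin, read 237.6 in the double knockout pool and 259.7 in the control pool, -0.13 log2. Esam, an adhesion molecule of endothelial contacts, read 659.0 in the double knockout pool and 725.3 in the control pool, -0.14 log2. All 3 lay within the probe set SD.

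Emcn, the sialomucin endomucin, was almost equal, at 234.1 in the double knockout pool and 232.1 in the control pool. Plvap, which forms the diaphragms of leaky capillaries and is lost as the barrier matures, read 417.1 in the double knockout pool and 443.3 in the control pool, -0.09 log2. Thus neither Plvap nor Cldn5 differed by more than the probe set SD. Ly6c1 and Ly6a, small surface proteins of mouse endothelium, had no probe set naming 1 gene alone and gave no value.

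The other secreted products of the endothelium were close. Egfl7, a matrix-bound factor of growing vessels, read 653.5 in the double knockout pool and 721.8 in the control pool on its brightest probe set, and its 4 probe sets went both ways with a mean of -0.05 ± 0.14 log2 (SD). That brightest probe set is marked for possible cross-hybridisation. Without the Egfl7 probe sets so marked, the difference was -0.0020 log2. Pdgfb, the signal that recruits pericytes, read 1072.4 in the double knockout pool and 1020.3 in the control pool on the brighter probe set. The dimmer Pdgfb probe set read 228.7 in the double knockout pool and 281.1 in the control pool, and the mean of both was -0.12 ± 0.26 log2 (SD). Vwf, the clotting factor carrier of endothelium and platelets, was under the floor, at 162.8 in the double knockout pool and 136.5 in the control pool.

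Transcription factors of the endothelium had a median of -0.01 log2 over 4 measured genes. Sox17, a factor of arterial identity and barrier formation, read 455.7 in the double knockout pool and 530.0 in the control pool, -0.22 log2, on a probe set marked for possible cross-hybridisation. Its other probe set read 196.6 in the double knockout pool and 197.7 in the control pool, -0.01 log2. Sox17 was therefore lower by more than the probe set SD on 1 of its 2 probe sets.

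Sox18, a related factor of vessels and lymphatics, read 337.8 in the double knockout pool and 339.2 in the control pool. Of the ETS factors, Fli1 read 397.0 in the double knockout pool and 330.0 in the control pool, 0.26 log2 higher, while its second probe set stayed under the floor at 167.6 in the double knockout pool and 162.1 in the control pool. Ets1 read 1279.0 in the double knockout pool and 1286.9 in the control pool, and its 2 probe sets above the floor averaged -0.01 ± 0.01 log2 (SD). Erg was under the floor on both probe sets, the brighter reading 138.5 in the double knockout pool and 129.3 in the control pool.

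**Figure D2:**
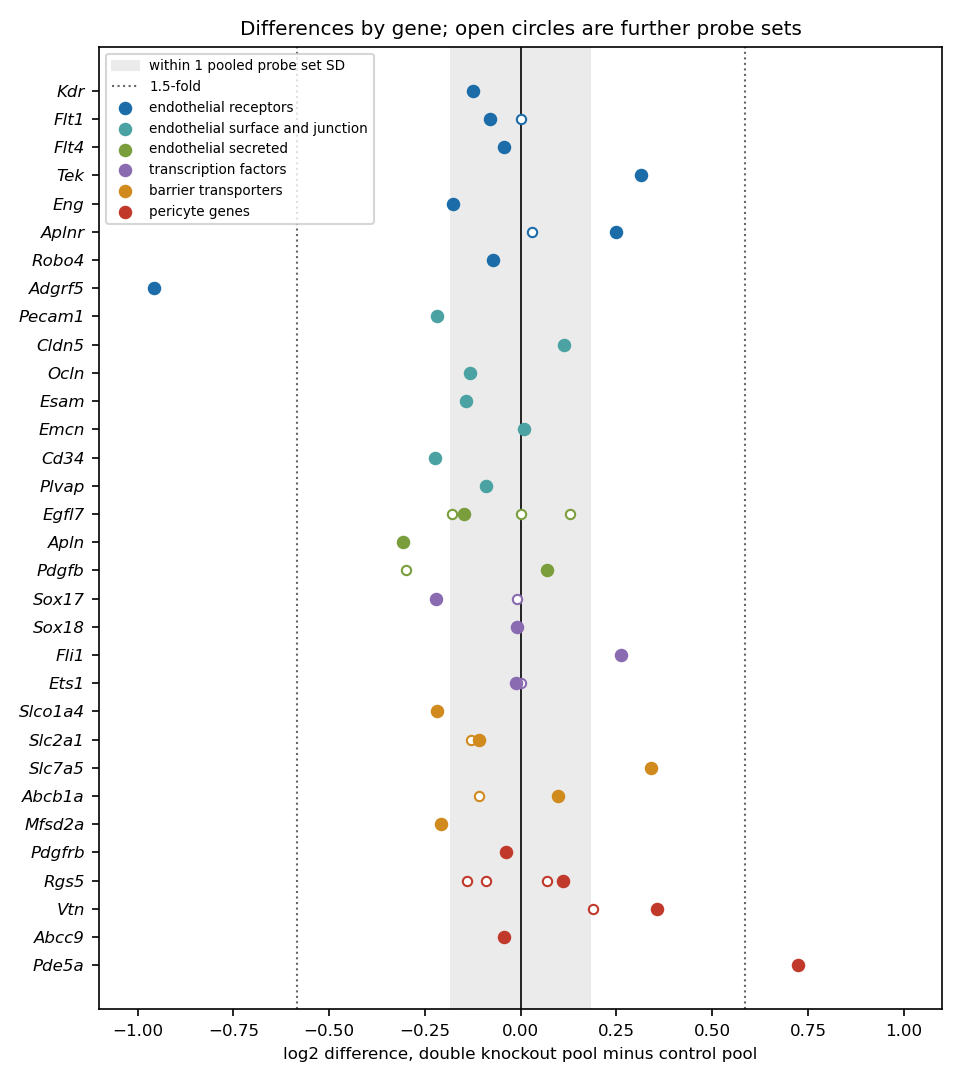
Log2 difference of each measured vascular gene, double knockout minus control; filled circles are the brightest probe set, open circles further probe sets above the floor on both arrays, the grey band is 1 pooled probe set SD (0.18), and dotted lines mark 1.5-fold. Adgrf5 at -0.96 and Pde5a at 0.72 are the points outside the dotted lines.

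The 5 barrier transporters had a median of -0.11 log2, with 3 lower and 2 higher in the double knockout pool. Slc2a1, the glucose transporter GLUT1, was lower on all 3 of its probe sets, which averaged -0.12 ± 0.01 log2 (SD). The brightest read 856.0 in the double knockout pool and 921.0 in the control pool. This is a small difference with little spread between probe sets, and it lies within the pooled probe set SD.

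Slco1a4, an organic anion carrier of brain capillaries, read 482.0 in the double knockout pool and 559.5 in the control pool, -0.22 log2. Mfsd2a, which carries docosahexaenoic acid and restrains transcytosis, read 658.9 in the double knockout pool and 759.3 in the control pool, -0.21 log2. Both were lower by slightly more than the probe set SD. Abcb1a, the efflux pump P-glycoprotein, read 347.2 in the double knockout pool and 323.5 in the control pool, with a mean of -0.01 ± 0.15 log2 (SD) over its 2 probe sets.

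Slc7a5, the LAT1 carrier of large neutral amino acids, was the barrier transporter with the largest difference. It read 2151.4 in the double knockout pool and 1694.1 in the control pool, 1.27-fold higher (0.34 log2) on its only probe set. Slc7a5 and Slc2a1 are expressed in other brain cells too, so their signals are not those of endothelium alone.

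Pericyte genes had a median of 0.11 log2 over 5 measured members, 3 higher and 2 lower. That median is the value of the brightest Rgs5 probe set, and the Rgs5 probe sets went both ways, as given below. Pdgfrb, the receptor for PDGF-B, read 540.8 in the double knockout pool and 553.4 in the control pool, -0.04 log2. Abcc9, the SUR2 subunit of a potassium channel, read 358.9 in the double knockout pool and 369.0 in the control pool, also -0.04 log2. This Abcc9 probe set is marked for possible cross-hybridisation, and the other Abcc9 probe sets were under the floor in both pools. Both of these pericyte markers were thus nearly equal in the pools.

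Rgs5, a regulator of G protein signalling abundant in pericytes, read 4127.0 in the double knockout pool and 3812.8 in the control pool on its brightest probe set. Its 4 probe sets went both ways, with a mean of -0.01 ± 0.12 log2 (SD). Vtn, vitronectin, an adhesive glycoprotein made by brain pericytes, read 1961.7 in the double knockout pool and 1530.2 in the control pool on its brightest probe set. The other Vtn probe set read 844.2 in the double knockout pool and 740.3 in the control pool, and the mean of both was 0.27 ± 0.12 log2 (SD). Vtn was higher on both probe sets, and Rgs5 was not.

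Pde5a, a phosphodiesterase that degrades cyclic GMP in mural cells, read 448.5 in the double knockout pool and 270.9 in the control pool, 1.65-fold higher (0.72 log2). It ranked 14 from the top among the 11636 measured genes. Its 2 other probe sets did not share the direction. One read 137.0 in the double knockout pool, under the floor, and 184.3 in the control pool, and the other was under the floor in both, at 99.7 in the double knockout pool and 117.7 in the control pool. The mean over measured Pde5a probe sets was 0.34 log2.

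Anpep, aminopeptidase N, was under the floor at 88.7 in the double knockout pool and 76.3 in the control pool, and Higd1b was under the floor at 119.1 in the double knockout pool and 156.6 in the control pool. Over the whole set, 10 genes had at least 2 probe sets above the floor on both arrays. Flt1, Slc2a1 and Sox17 were lower on all of theirs after centring, Aplnr and Vtn higher on all, and Abcb1a, Egfl7, Ets1, Pdgfb and Rgs5 went both ways. Some of these signs rest on nearly equal signals. The other Flt1 probe set read 282.9 in the double knockout pool and 282.3 in the control pool before centring. The dimmer probe sets of Sox17 and Aplnr differed by -0.01 and 0.03 log2.

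**Figure D3:**
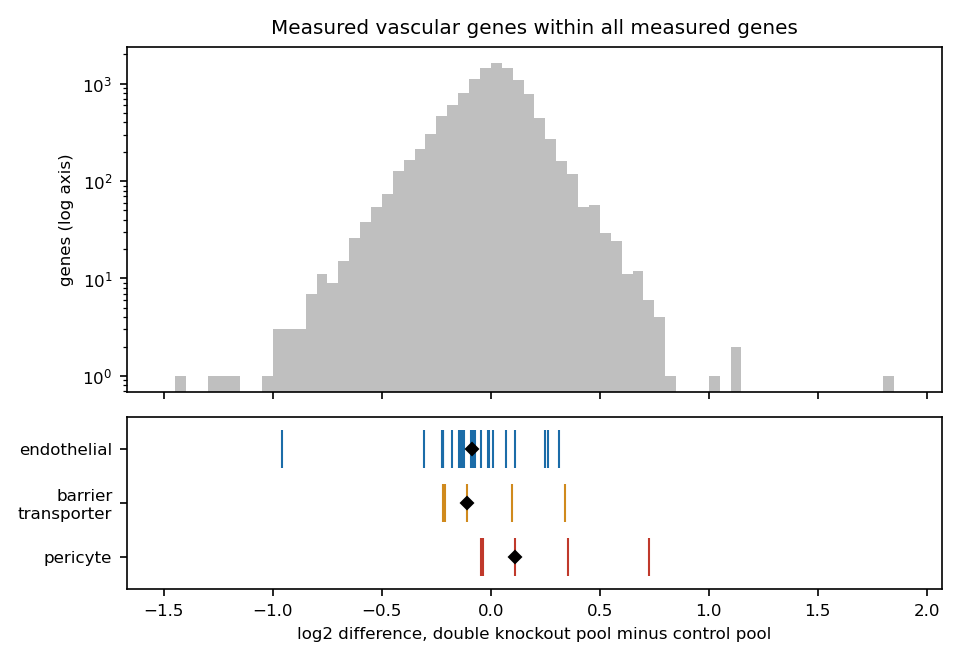
Upper panel, histogram of the log2 difference, double knockout minus control, of all 11636 measured genes, with a log axis for the number of genes; lower panel, 1 tick per measured endothelial, barrier transporter or pericyte gene, with a black diamond at each median (-0.09, -0.11 and 0.11). Apart from Adgrf5 and Pde5a, the ticks lie within the bulk of the histogram.

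Genes of the same cells outside the 39 mostly showed similarly small differences. Of 34 other endothelial genes 29 were measured, 13 higher and 16 lower, with a median of -0.05 log2, and 0 passed 1.5-fold. Ctla2a, a protease inhibitor, differed by -0.35, Abcg2, an efflux pump of the barrier, by 0.32, and Ecscr, an endothelial surface protein, by -0.29. Lyve1 (0.45) and Mmrn2 (-0.39) differed more, but each was under the floor in 1 pool. Cdh5, the VE-cadherin that defines endothelial contacts, read 340.3 in the double knockout pool and 303.7 in the control pool, 0.16 log2 higher where Pecam1 was lower.

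Of 13 other pericyte genes 10 were measured, 4 higher and 6 lower, with a median of -0.03 log2. Of these, 1 passed 1.5-fold, beside 1.14% of all measured genes. Tbx18, a mural and meningeal transcription factor, read 387.4 in the double knockout pool and 232.1 in the control pool, 0.74 log2 higher on 1 probe set. Cspg4, the NG2 proteoglycan, differed by -0.20 on its brightest probe set and by a mean of 0.01 ± 0.29 (SD) over 2, and Zic1 differed by -0.17. Of 10 contractile genes of vascular smooth muscle 5 were measured, 2 higher and 3 lower, with a median of -0.08 log2. Des differed most, by 0.53 log2 after the floor was applied. It read 258.6 in the double knockout pool and 37.0, under the floor, in the control pool. Acta2, smooth muscle actin and a target of SRF, differed by -0.24, Tpm2, a tropomyosin, by -0.23 and Mylk, a myosin kinase, by 0.16.

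The signalling genes around the vessel gave no common direction. Of 18 genes of VEGF, angiopoietin and Notch signalling 13 were measured, 7 higher and 6 lower, with a median of 0.0047 log2. Unc5b, a netrin receptor of tip cells, differed by -0.31, Nrp2, a coreceptor for VEGF-C, by 0.28 and Vegfd by 0.24, although the probe set means were 0.10 ± 0.16 (SD) for Nrp2 and 0.06 ± 0.26 (SD) for Vegfd. Of 15 genes of Wnt signalling to the barrier 13 were measured, 6 higher and 7 lower, with a median of -0.04 log2. Adgra2, the receptor GPR124 that relays WNT7 signals in brain endothelium, was 0.38 log2 higher, Apcdd1, a Wnt inhibitor, 0.29 higher (5 probe sets averaging 0.12 ± 0.20, SD), and Axin2 differed by -0.26.

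Of 14 genes of TGF-beta signalling in vessels 13 were measured, 8 higher and 5 lower, with a median of 0.03 log2. Smad5 differed by -0.32, Tgfbr2, the type II receptor, by -0.28 and Smad1 by 0.27, with probe set means of -0.15 ± 0.21 (SD) for Smad5 and 0.14 ± 0.16 (SD) for Smad1.

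**Figure D4:**
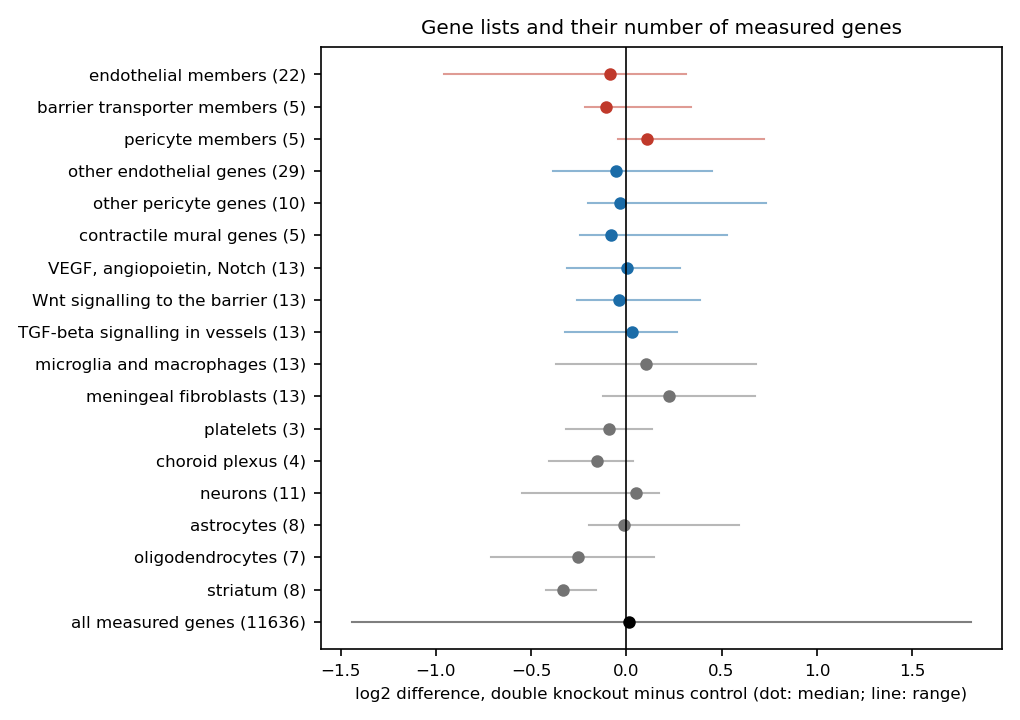
Median (dot) and range (line) of the log2 difference, double knockout minus control, for the endothelial, barrier transporter and pericyte genes (red, called members), related vascular lists (blue), marker lists of other cells and tissue (grey) and all measured genes (black), with the number of measured genes in brackets. The medians of these 3 groups are -0.09, -0.11 and 0.11, and those of the striatum (-0.33), oligodendrocyte (-0.25), meningeal fibroblast (0.23) and choroid plexus (-0.15) markers lie further from 0.

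Several markers of neighbouring cells and regions differed as well. Of 13 measured markers of meningeal fibroblasts, cells that share Pdgfrb with pericytes, 11 were higher and 2 lower. Their median was 0.23 log2, with a summed signal of 10842.5 in the double knockout pool and 8549.1 in the control pool. Aldh1a2 was 0.68 and Igf2 0.59 log2 higher. Microglia and macrophage markers had 8 higher and 5 lower of 13, with a median of 0.11 log2. Their summed signal was 10695.9 in the double knockout pool and 9934.7 in the control pool. Mrc1 and C1qc were 0.68 and 0.46 log2 higher. The microglial marker P2ry12 went the other way, at 995.0 in the double knockout pool and 1283.8 in the control pool (-0.37 log2). The part of meningeal cells in the pericyte values, among them Vtn, Pde5a and Tbx18, was not tested.

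All 8 measured striatal markers were lower, with a median of -0.33 log2 and a summed signal of 6625.7 in the double knockout pool and 8340.1 in the control pool, led by Drd2 at -0.42 and Six3 at -0.41. Oligodendrocyte markers had 5 lower of 7, a median of -0.25 log2 and a summed signal of 18717.7 in the double knockout pool and 21616.0 in the control pool, with Mag at -0.71 and Mbp at -0.43. Neuron markers had a median of 0.05 log2 over 11 genes, with Slc17a7 at -0.55 and Emx1 at 0.17. Astrocyte markers had a median of -0.01 over 8 genes, with Gfap at 0.59 and Slc1a2 at -0.20.

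The 4 measured choroid plexus markers had a median of -0.15, 1 higher and 3 lower, with Kcnj13 at -0.41 and Clic6 at -0.24. Kcnj13 read 188.8 in the double knockout pool, near the floor. Ttr, by far the brightest of the 4, read 12739.7 in the double knockout pool and 12405.5 in the control pool (0.03 log2). Their summed signal was 13481.1 in the double knockout pool and 13273.6 in the control pool. The 3 platelet markers had a median of -0.09, with Itga2b at -0.32 and Pf4 at 0.13. Of 10 red blood cell markers 0 were measured. The defining endothelial markers Pecam1, Kdr, Cldn5 and Cdh5 and the pericyte markers Pdgfrb, Rgs5, Kcnj8 and Abcc9 reached the floor in both pools, and Tie1 did not. As a check of the labels, the brightest Mrtfb probe set read 2481.8 in the double knockout pool and 3358.9 in the control pool (-0.44 log2), and Srf differed by -0.31 and -0.24 on its 2 probe sets. The sources used here do not give whether these probe sets, or that of Mrtfa, lie in the deleted parts.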

How the data were processed

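Cortical RNA of newborn mice was measured on 2 Affymetrix arrays, 1 per pool of 3 animals, with 6 ug RNA labelled for each, per the labels' protocols. The authors deposited a linear intensity per probe set from MAS5, as named in the submitters' processing notes. Its version and scaling target are not stated there. The number of columns of no listed sample was 0. Of 45101 probe sets, 64 controls were set aside and 34945 named 1 gene.

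Signals were centred on the median log2 difference of probe sets above the 50th percentile on both arrays (a shift of 0.0037), set to a floor of 178.6, and reduced to the brightest measured probe set per gene. Printed signals are as deposited, before centring. Genes were counted at 1.2-fold and 1.5-fold. Every one of the 39 genes is named. Up to 3 genes of each related list and 2 of each marker list are named by size of difference above the floor on both arrays. Named besides are the cell type markers Cdh5, Kcnj8, Ttr and P2ry12 and the genes Mrtfa, Mrtfb and Srf. So are Des, Lyve1 and Mmrn2, which reached the floor in 1 pool only. Adgrf5 and Pde5a were chosen for promoter sequences after their values were seen. The vascular genes and the lists were chosen with earlier results of these data known. With 1 array per pool no test was made, and the number of arrays limits the precision. Alternatives were no centring, quantile normalization, loess centring (span 0.3), floors at percentiles 25 and 75, a pseudocount, no floor, the mean over probe sets, and leaving out probe sets marked for cross-hybridisation. The steps were tested on simulated data. Python 3.11.15, numpy 2.4.6, pandas 2.3.3, statsmodels 0.14.6 and matplotlib 3.10.9 were used.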

Additional observations from a re-analysis of the deposited data

How the results depend on the processing

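No paired analysis was possible because each group has 1 array. The median of the endothelial genes, -0.09 log2, was -0.0437 after quantile normalization and -0.0126 over the 9 genes left with the floor at the 75th percentile. The median of the pericyte genes, 0.11 log2, turned to -0.0111 with the mean over probe sets, and was 0.23 under that higher floor (2 genes) and 0.23 without probe sets marked for cross-hybridisation (4 genes). The 21 lower genes became 7 of 14 with the floor at the 75th percentile, where fewer genes were measured and 39.8% of all measured genes were lower. The 2 genes past 1.5-fold became 0 with that floor, under which neither Adgrf5 nor Pde5a was measured. With the pseudocount, which shrinks differences, they became 0, and with the mean over probe sets 1, Adgrf5. The share of all measured genes past 1.5-fold is not given for these settings. Genes past the pooled probe set SD were counted after seeing the data. The 7 lower became 3 with the floor at the 75th percentile (14 genes measured), beside 7.3% of all measured genes. With the pseudocount they became 2, beside 10.3%. The 6 higher became 3 under that higher floor, beside 10.5%. With the floor at the 25th percentile, 9 of 37 measured vascular genes were lower by more, beside 23.7% of all measured genes. In that setting 8 were higher by more, beside 13.7%. Calls at this SD therefore depend on how low signals are treated. Of 269 values of single genes under the alternatives, 263 moved by less than the pooled probe set SD and 6 by more: those of Tek (0.06 with the floor at the 75th percentile), Adgrf5 (-0.57) and Pde5a (0.48) with the pseudocount, Pdgfb (-0.12) and Pde5a (0.34) with the mean over probe sets, and Sox17 (-0.01) without probe sets marked for cross-hybridisation. The cause of these 6 was not tested. Part of the stability of the other values was fixed in advance. Leaving out centring moves a value by only 0.0037 log2. A floor at the 25th percentile, or none, leaves genes above the main floor on both arrays unchanged. The mean over probe sets cannot move a gene with only 1 probe set, as had 18 of the 37 vascular genes with single-gene probe sets. The barrier transporter median stayed between -0.12 and -0.09, but in each setting it was the value of Slc2a1. It therefore does not show the stability of the group, whose values ranged from -0.22 to 0.34 log2. Signals near the floor, such as that of Adgrf5, are the least certain.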
